A study of Mus musculus with 64 samples.

Results

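Oxt, Avp, Oxtr and Avpr1a, the genes of oxytocin, vasopressin, the oxytocin receptor and the V1a vasopressin receptor, were taken from the bulk RNA sequencing of mouse hypothalamus and prefrontal cortex (PFC). They were the 4 genes of 55401 whose identifier, with its version dropped, carried these symbols, and they were read in all 8 groups of region, treatment and time. Of 64 libraries, 62 held at least 1000000 counted reads and were used. The mice were 10-week-old chow-fed, group-housed male C57BL/6J animals, with no engineered allele named. Each received 1 intraperitoneal injection of 3 mg/kg psilocybin, the prodrug of the serotonergic psychedelic psilocin, or of the vehicle, isotonic saline. Tissue was taken in the morning, either 3 h or 4 weeks later. Each of the 32 mice gave a PFC and a whole hypothalamus, so that a group held 8 libraries, or 7 where a shallow library was left out (hypothalamus vehicle 3 h and PFC psilocybin 4 weeks). The 4-week mice were correspondingly older at harvest.

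Oxytocin and vasopressin are nonapeptides made mainly by magnocellular and parvocellular neurons of the paraventricular and supraoptic nuclei of the hypothalamus. Each is cut from a precursor that also contains its carrier, a neurophysin, and is released from the posterior pituitary into blood and from axons and dendrites within the brain. Vasopressin is also made by neurons of the suprachiasmatic nucleus, the circadian pacemaker. Both peptides act on receptors that couple to Gq proteins and phospholipase C, of which Oxtr encodes the oxytocin receptor and Avpr1a the V1a vasopressin receptor that predominates in brain. In cortex the peptides arrive through axons, whose cell bodies lie elsewhere, while the receptors are made locally.

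Oxt and Avp are neighbours on mouse chromosome 2 (GRCm38) and point towards each other. Oxt (ENSMUSG00000027301.7) spans chr2:130576173-130577054 on the plus strand with 3 exons, and Avp (ENSMUSG00000037727.6) spans chr2:130580620-130582554 on the minus strand, also with 3 exons. Their ends lie 3565 bases apart with no annotated gene between them. The transcripts resemble each other: of the 486 windows of 52 bases, the read length, in the Oxt transcript, 76 (15.6%) occurred identically in Avp, and the longest shared run was 127 bases. Reads that fall wholly inside that stretch could not be told apart by sequence without their mates, and how such reads were counted is not stated in the sources used here. Oxtr (ENSMUSG00000049112.9) lies at chr6:112473683-112489943 on the minus strand. Avpr1a (ENSMUSG00000020123.6) lies at chr10:122448499-122453452 on the plus strand and overlaps Gm48877 on the opposite strand; counting by strand was used.

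The 250 bases upstream of each peptide gene are shown because these neighbours carried nearly equal amounts of RNA in the hypothalamus and varied together while these stretches differ in the motifs searched. The sequences are those of RefSeq for GRCm38.p6, written 5′ to 3′ on the strand of the gene. Capitals in Oxt mark TGACC or its reverse complement GGTCA, the half-site bound by nuclear receptors and related to the composite hormone response element known from the Oxt promoter. Capitals in Avp mark CACGTG, the E-box that the circadian factors CLOCK and BMAL1 bind.
Oxt: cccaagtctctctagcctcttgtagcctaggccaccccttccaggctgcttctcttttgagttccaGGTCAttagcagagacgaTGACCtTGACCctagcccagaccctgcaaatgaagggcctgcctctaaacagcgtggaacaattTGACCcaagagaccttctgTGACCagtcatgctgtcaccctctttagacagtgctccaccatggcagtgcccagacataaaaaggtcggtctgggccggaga
Avp: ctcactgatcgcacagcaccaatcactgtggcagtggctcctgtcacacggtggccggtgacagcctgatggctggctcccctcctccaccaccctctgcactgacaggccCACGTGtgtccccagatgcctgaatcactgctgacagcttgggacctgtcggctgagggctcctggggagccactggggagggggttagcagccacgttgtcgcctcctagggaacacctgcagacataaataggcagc
The Oxt sequence is chr2:130575919-130576168 and the Avp sequence chr2:130582589-130582838. Distances are counted from the RefSeq starts, which lie 4 bases (Oxt) and 34 bases (Avp) upstream of the gene spans given above. TGACC or GGTCA occurred 5 times upstream of Oxt, with first bases 184, 166, 160, 102 and 83 bases before the start, and 0 times upstream of Avp. Of 32536 mouse promoters of this length, 35.32% held at least 1 match and 14 (0.043%) held 5 or more. CACGTG occurred once upstream of Avp, between 139 and 134 bases before the start, and 6.04% of promoters held it. The same E-box stood 43 bases before the RefSeq start of Oxtr, which lies 118 bases inside the span given above, so that this match falls within that span, and 1 GGTCA stood 97 bases before that RefSeq start. In addition, 1 TGACG, the half-site of the cAMP response element, which 17.85% of promoters held, stood upstream of Avpr1a. Such matches describe the letters and not binding.

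Libraries held 8061033 to 33947174 counted reads in the hypothalamus and 9473354 to 70361839 in PFC. Both dissections carried markers of their own region, and some libraries also those of neighbouring tissue. The summed level of 8 hypothalamic marker genes (Hcrt, Pmch, Agrp, Pomc and others) was 144 to 468 counts per 1000000 reads (CPM) in the hypothalamus and 0.781 to 4.53 in PFC, whereas 5 cortical markers summed to 1277 to 1866 CPM in PFC and 20.8 to 117 in the hypothalamus. Summed marker levels in the hypothalamus were 82.7 to 376 CPM for thalamus, 148 to 645 for striatum, 8.19 to 1176 for choroid plexus and 1.77 to 375 for pituitary, and striatal markers reached 1678 CPM in PFC (median 231). Their part in the results was not tested. The library with the highest Oxt level of each region stood apart from the rest, in PFC by its depth and Oxt level and not by its sum of hypothalamic markers. Hypothalamus psilocybin 4 weeks replicate 5 had 4.84% of its counts on genes under 1000 bases, against 1.57 to 2.30% in the other hypothalamic libraries, and its ribosomal protein genes summed to 35814 CPM against 7986 to 12987. PFC vehicle 4 weeks replicate 3 was the deepest library, with 70361839 reads, and had the highest PFC sum of hypothalamic markers, 4.53 CPM, next to 4.43 CPM in psilocybin 4 weeks replicate 5.

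In the hypothalamus both peptide genes were abundant and the receptor genes were not. Levels between genes are compared per kilobase of transcript (RPKM, which is CPM divided by the length of the gene's transcripts in kilobases). The median over 31 hypothalamic libraries was 259 RPKM for Avp and 259 RPKM for Oxt, with overlapping ranges. It was 1.72 RPKM for Avpr1a and 1.45 RPKM for Oxtr, and the lowest Oxt library (126 RPKM) lay above the highest Avpr1a library (2.09 RPKM). In PFC the order changed. Oxtr led with a median of 1.49 RPKM, followed by Avp with 0.617, Oxt with 0.163 and Avpr1a with 0.115 RPKM. Ordered over both regions, the medians ran from Avp and Oxt in the hypothalamus, through a 150-fold step, to Avpr1a in the hypothalamus, Oxtr in PFC, Oxtr in the hypothalamus, Avp in PFC, Oxt in PFC and Avpr1a in PFC. Neighbours in this order overlapped in range everywhere except at the 150-fold step. In bulk tissue, fewer cells of a type and less RNA per cell cannot be told apart.

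The comparison of the regions asks where each gene was expressed, averaged over the 4 treatment and time groups. Oxt, Avp and Avpr1a were lower in PFC and Oxtr did not differ detectably. At an adjusted p under 0.05 in the quasi-likelihood test of edgeR, 76.2% of the 18971 genes tested differed between regions and 36.5% were lower in PFC, so 3 of 4 members is a share near the background. The share of all genes whose regions did not overlap was not counted, so the lack of overlap given below has no background beside it. Oxt had 67.7, 138.9 and 1201 CPM (lowest, median and highest of 31 libraries) in the hypothalamus and 0, 0.0878 and 7.63 CPM in PFC, where 9 of 31 libraries held no Oxt read. The regions did not overlap, and the log2 fold change was -8.88 (SE 0.37, adjusted p = 5.05e-29). Avp had 56.9, 149.6 and 1121 CPM in the hypothalamus and 0, 0.356 and 2.76 CPM in PFC, again without overlap, with a log2 fold change of -7.94 (SE 0.29, adjusted p = 3.88e-31). Avpr1a was a low transcript in both regions, with 2.41, 4.605 and 5.58 CPM in the hypothalamus and 0, 0.307 and 0.702 CPM in PFC. Its regions did not overlap either, at a log2 fold change of -3.67 (SE 0.15, adjusted p = 1.41e-30). Oxtr was the exception: its 31 hypothalamic libraries ran from 5.30 through 6.94 to 9.998 CPM and its 31 PFC libraries from 3.76 through 7.15 to 11.4 CPM. The hypothalamic range lay within the PFC range, and the log2 fold change of 0.01 had a 95% interval of -0.13 to 0.15 (adjusted p = 0.884). Without the 2 libraries that stood apart, the log2 fold changes were -9.80 for Oxt, -8.25 for Avp, -3.70 for Avpr1a and -0.03 for Oxtr, with the same 3 genes called. The sign of Oxtr turned under 6 of the alternatives, each time within 0.04 of 0. Region and extraction pool, the batch in which RNA was isolated, cannot be told apart, because pools A and B held hypothalamus and pools C and D held PFC.

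At 3 h after injection in the hypothalamus, the question was whether psilocybin acutely altered the peptides or their receptors, and none of the 4 genes passed the test. In this comparison 0% of 18971 genes were called, and 0 of 4 members had an unadjusted p under 0.05. DESeq2 called 0 members, with 0 at an unadjusted p under 0.05, and limma-voom with quality weights called 0, with 2 (Oxt and Avpr1a) at an unadjusted p under 0.05. Oxt had 67.7, 97.6 and 244 CPM (lowest, median and highest of 8 libraries) after psilocybin and 98.4, 138.9 and 249 CPM after vehicle (n = 7). Of the 8 psilocybin libraries 4 lay below the lowest vehicle library, while the others were spread over the vehicle range. The edgeR log2 fold change was -0.33 (95% interval -1.21 to 0.54, adjusted p = 1). Avp was arranged alike, with 65.5, 98.2 and 287 CPM after psilocybin and 94.97, 149.6 and 299 CPM after vehicle. Again 4 psilocybin libraries lay below all vehicle libraries, and the log2 fold change was -0.15 (interval -0.93 to 0.62). Oxtr, the oxytocin receptor gene, had medians of 7.53 CPM (psilocybin) and 7.72 CPM (vehicle). Its psilocybin libraries spread to both sides of the vehicle range, 2 above the highest vehicle library and 2 below the lowest, and its interval of -0.24 to 0.33 on the log2 scale was the narrowest of the 4. Avpr1a had medians of 5.05 and 5.19 CPM. Of its psilocybin libraries 3 lay below the vehicle range of 4.61 to 5.56 CPM, and the log2 fold change was -0.22 (interval -0.73 to 0.28).

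At 4 weeks the hypothalamic peptide genes were higher after psilocybin in the fitted values, but neither passed the test, and the size rested on 1 library. Oxt had 89.6, 148 and 1201 CPM after psilocybin (n = 8) and 70.7, 131 and 178 CPM after vehicle (n = 8). The second highest psilocybin library had 181 CPM, so that apart from replicate 5 the groups covered nearly the same range. Avp had 95.2, 176 and 1121 CPM after psilocybin, the second highest being 280 CPM, and 56.9, 154 and 248 CPM after vehicle. The log2 fold change was 0.94 for Oxt (SE 0.43, interval 0.09 to 1.80, unadjusted p = 0.0313, adjusted p = 0.473) and 0.78 for Avp (SE 0.38, interval 0.02 to 1.54, unadjusted p = 0.0436, adjusted p = 0.502). Without replicate 5 these values were 0.21 (unadjusted p = 0.545) and 0.23 (unadjusted p = 0.467), and in limma-voom, which gave replicate 5 a quality weight of 0.0276, they were 0.04 and 0.06. With the summed level of the 81 ribosomal protein genes as a covariate they were 0.12 and 0.10. In this comparison edgeR called 0% of 18971 genes, and 1823 of them had an unadjusted p under 0.05. Of the members 0 were called and 2 had an unadjusted p under 0.05 in edgeR, and both counts were 0 in DESeq2 and in limma-voom. The receptor genes had smaller differences. Oxtr had medians of 6.90 CPM (psilocybin) and 6.80 CPM (vehicle), with a log2 fold change of 0.06 (interval -0.21 to 0.34), and Avpr1a had medians of 4.07 and 3.79 CPM, with 0.13 (interval -0.36 to 0.62). For neither receptor gene did the groups separate.

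**Figure D1:**
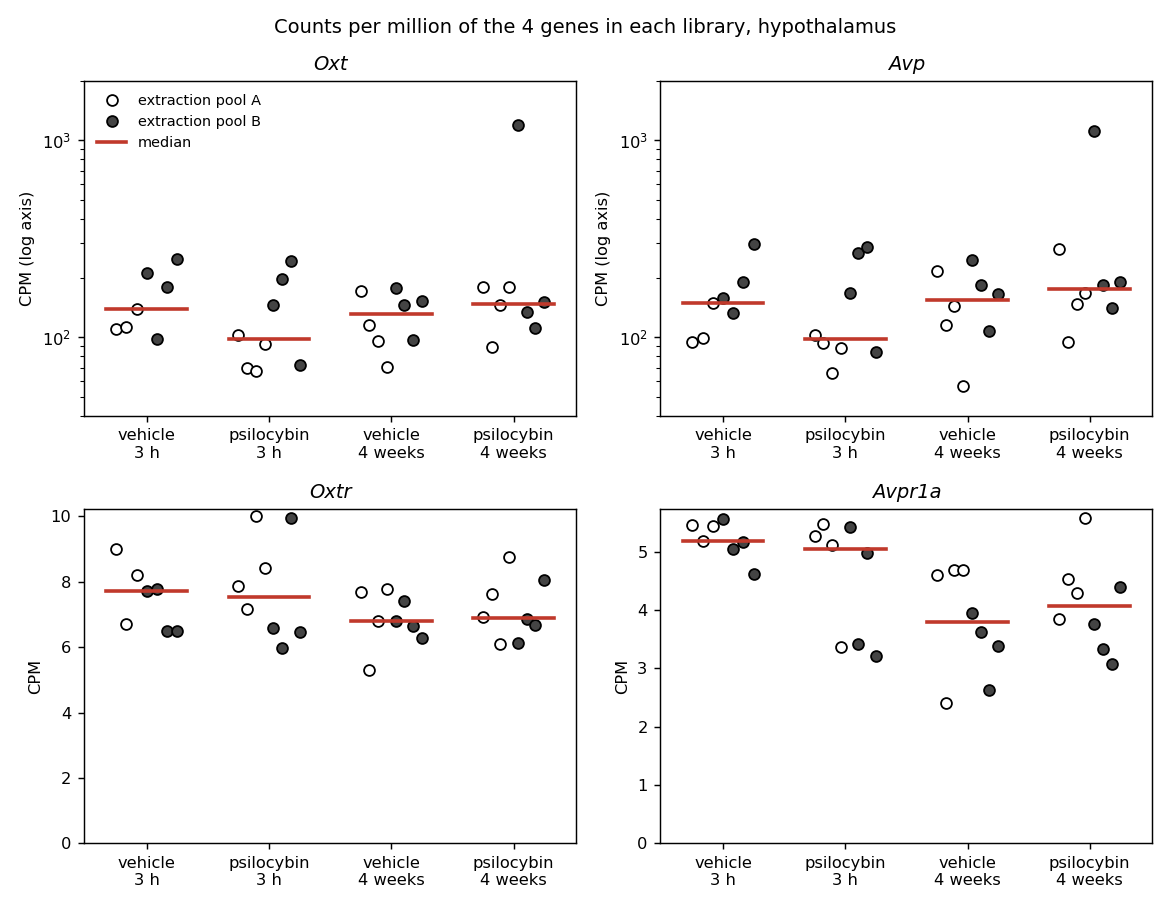
CPM of Oxt, Avp, Oxtr and Avpr1a in each of 31 hypothalamic libraries, by group (horizontal axis), with open circles for extraction pool A, filled circles for pool B and a bar at the group median. The axes of Oxt and Avp are logarithmic, and psilocybin 4 weeks replicate 5 stands alone at 1201 CPM of Oxt and 1121 CPM of Avp.

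In PFC at 3 h, 0 of the 4 genes were called in edgeR, against 0.0105% (2) of all genes, and 0 had an unadjusted p under 0.05. Both member counts were also 0 in DESeq2 and in limma-voom, which called 6.49% of all genes in this comparison. The peptide transcripts were near the limit of detection. Oxt had 0, 0.0293 and 1.39 CPM after psilocybin, with 4 of 8 libraries at 0 reads, and 0, 0.284 and 1.75 CPM after vehicle, with 2 of 8 at 0. The groups overlapped, and at 0 to 35 reads per library the log2 fold change of -1.57 had an interval of -4.38 to 1.23. Avp had medians of 0.201 and 0.504 CPM and a log2 fold change of -0.51 (interval -2.25 to 1.24). Oxtr, which had at least 69 reads in every PFC library, had 5.18, 8.02 and 11.4 CPM after psilocybin and 6.50, 7.16 and 10.1 CPM after vehicle. Its log2 fold change was 0.07, and the interval of -0.21 to 0.34 bounds the change at this depth. Avpr1a had medians of 0.228 and 0.269 CPM, a log2 fold change of 0.38 and an interval of -0.36 to 1.13. Its sign turned to -0.02 in limma-voom.

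In PFC at 4 weeks, Oxt had the most extreme fitted change of the 4 genes, a log2 fold change of -3.50 (SE 1.16, interval -5.83 to -1.17, unadjusted p = 0.00394, adjusted p = 1). Its values were 0, 0.127 and 0.242 CPM after psilocybin (n = 7) and 0, 0.132 and 7.63 CPM after vehicle (n = 8). Replicate 3 of the vehicle group held 533 Oxt reads, the second highest vehicle library had 0.375 CPM, and all 7 psilocybin libraries lay within the vehicle range. Without replicate 3 the log2 fold change was -0.43 (unadjusted p = 0.774). The same library had 2.33 CPM of Avp, against at most 0.792 CPM in the other vehicle libraries, and the fitted Avp change turned from -0.63 to 0.36 without it. Beside its Oxt reads, this library had the highest values of its group for the hypothalamic genes Otp (1.29 CPM), Gal (4.23 CPM) and Trh (9.28 CPM). Trh also reached 9.38 CPM in the psilocybin 4 weeks group, where the highest Oxt level was 0.242 CPM. Whether hypothalamic tissue or RNA contributed was not tested. Oxtr had medians of 7.21 CPM (psilocybin) and 6.31 CPM (vehicle), with a log2 fold change of 0.21 (interval -0.08 to 0.49). Avpr1a had medians of 0.328 and 0.380 CPM, with -0.19 (interval -0.88 to 0.49). In this comparison 0% of genes were called, and 456 of 18971 had an unadjusted p under 0.05 in edgeR. Of the members 0 were called and 1 (Oxt) had an unadjusted p under 0.05 in edgeR and in DESeq2. In limma-voom 0 were called and the 1 under 0.05 was Oxtr (log2 fold change 0.29, adjusted p = 0.912), not Oxt.

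**Figure D2:**
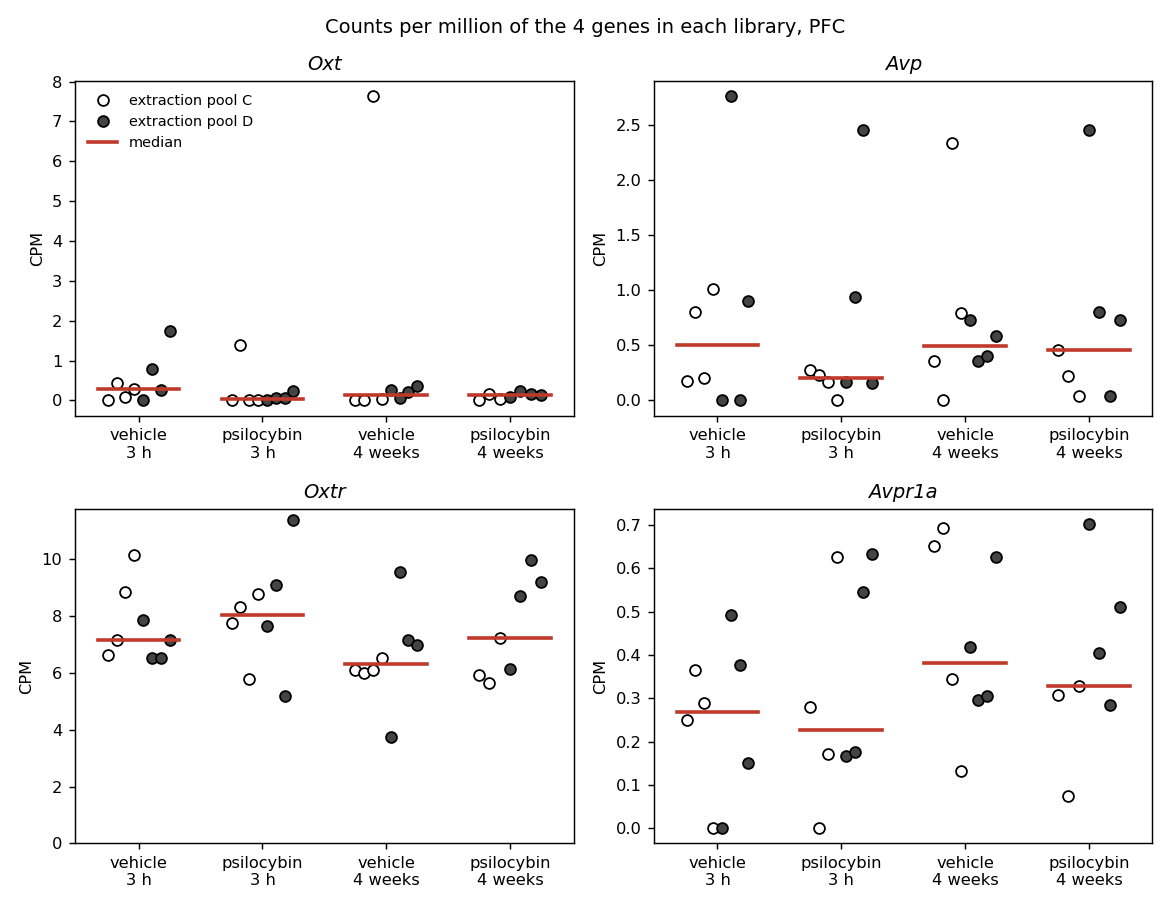
CPM of the 4 genes in each of 31 PFC libraries, by group, on linear axes, with open circles for extraction pool C, filled circles for pool D and a bar at the group median. Oxtr lies between 3.76 and 11.4 CPM in every library, while Oxt lies at 1.75 CPM or less except in vehicle 4 weeks replicate 3, at 7.63 CPM.

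**Figure D3:**
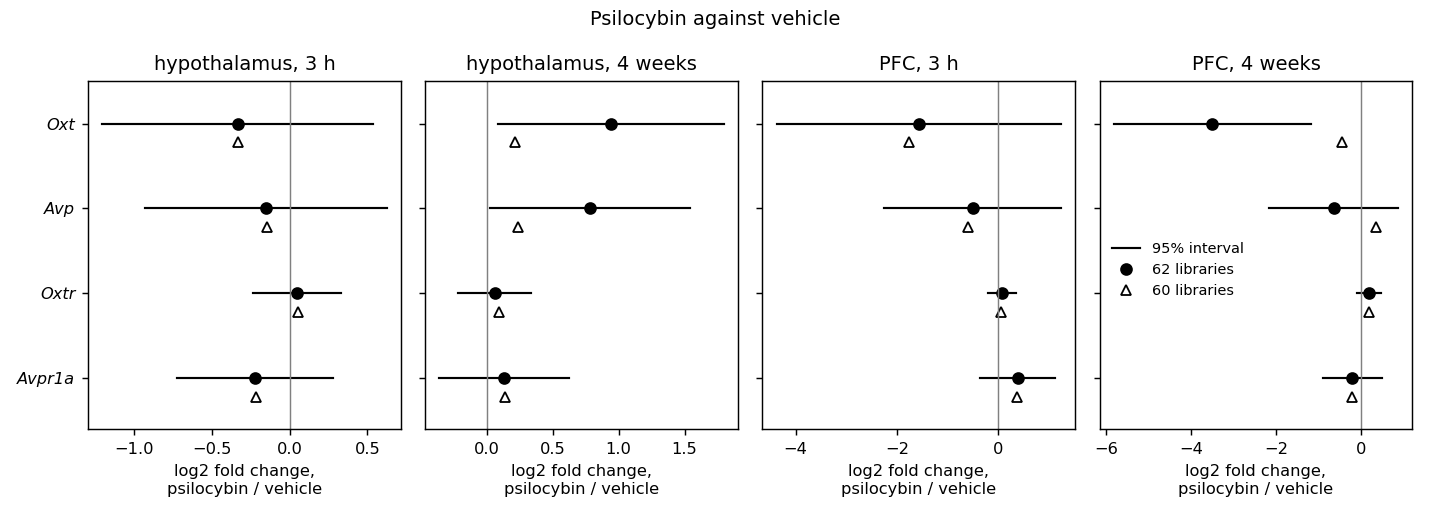
Log2 fold change of psilocybin against vehicle for each gene in each region and time, with filled circles and 95% intervals from 62 libraries and open triangles from the 60 libraries left when hypothalamus psilocybin 4 weeks replicate 5 and PFC vehicle 4 weeks replicate 3 are omitted. Horizontal scales differ between panels. Oxt at 4 weeks moves from 0.94 to 0.21 in the hypothalamus and from -3.50 to -0.44 in PFC, and the intervals of Oxtr are narrow and include 0 in all 4 panels.

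Whether the effect of psilocybin differed between 3 h and 4 weeks was tested as an interaction. In either region 0% of genes were called and 0 of 4 members. At an unadjusted p under 0.05 edgeR had 999 of 18971 genes in the hypothalamus and 585 in PFC. In the hypothalamus 1 member, Oxt, had an unadjusted p under 0.05 in edgeR, with a difference of -1.28 between its log2 fold changes (SE 0.61, unadjusted p = 0.0402, adjusted p = 0.904). Without replicate 5 that difference was -0.55 (unadjusted p = 0.262). The Avp difference was -0.94 (SE 0.54, adjusted p = 0.906). DESeq2 gave 0 members at an unadjusted p under 0.05, and limma-voom gave 1, which was Avpr1a (-0.47, adjusted p = 0.775) and not Oxt. In PFC 0 members had an unadjusted p under 0.05 with any of these tools, and the fitted differences of Oxt and Avp turned sign without vehicle replicate 3.

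Comparing 3 h with 4 weeks within a treatment sets mice of different age and harvest day against each other, which cannot be told apart from time since the injection. By edgeR 0 of the 4 genes were called in each of these 4 comparisons. At an unadjusted p under 0.05 the hypothalamus had 3302 of 18971 genes after psilocybin and 1535 after vehicle. In the hypothalamus after psilocybin, where 1.16% of genes were called, Oxt and Avp were lower at 3 h in the fitted values, by -1.09 (SE 0.42, unadjusted p = 0.0133, adjusted p = 0.175) and -1.0 (SE 0.38, unadjusted p = 0.0107, adjusted p = 0.164) on the log2 scale. Without replicate 5 the differences were -0.31 and -0.41, with unadjusted p = 0.374 and 0.209, and DESeq2 and limma-voom gave 0 members at an unadjusted p under 0.05. In the hypothalamus after vehicle, where 0.685% of genes were called, Avpr1a had 4.61, 5.19 and 5.56 CPM at 3 h (n = 7) and 2.41, 3.79 and 4.69 CPM at 4 weeks (n = 8). All but 1 of the 3 h libraries lay above every 4-week library. The log2 fold change was 0.50 (SE 0.25, unadjusted p = 0.0533, adjusted p = 0.63) in edgeR, 0.48 (unadjusted p = 0.00286, adjusted p = 0.159) in DESeq2 and 0.49 (adjusted p = 0.00974) in limma-voom, which called it and 7.25% of all genes. After psilocybin the same contrast of Avpr1a was 0.14 (interval -0.35 to 0.63), with 3.21 to 5.48 CPM at 3 h and 3.08 to 5.58 CPM at 4 weeks. For Oxtr the hypothalamic contrasts were 0.13 after vehicle and 0.12 after psilocybin, both with intervals that included 0.

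In PFC 4.72% of genes were called between 3 h and 4 weeks after vehicle and 5.96% after psilocybin. At an unadjusted p under 0.05 there were 3419 and 3875 of 18971 genes. Avpr1a had an unadjusted p = 0.037 after vehicle (log2 fold change -0.75, SE 0.35, adjusted p = 0.238), at 0 to 8 reads per library at 3 h and 3 to 24 at 4 weeks. It was the 1 member under 0.05 in edgeR and DESeq2, and limma-voom had 0. Oxt after vehicle had a log2 fold change of -1.69 (adjusted p = 0.279) that turned to 1.72 without replicate 3 of the 4-week group. With the ribosomal protein level as a covariate, and replicate 3 still in the fit, it was -2.24 and was called, among 7.11% of all genes. That covariate had 1 slope for both regions, and r of Oxt with the ribosomal protein level was 0.884 in the hypothalamus and 0.274 in PFC. After psilocybin 0 members had an unadjusted p under 0.05 in edgeR, DESeq2 or limma-voom. Oxtr was 0.23 higher at 3 h after vehicle (interval -0.04 to 0.51) and 0.09 higher after psilocybin (interval -0.19 to 0.38) on the log2 scale, neither past the test.

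Within the hypothalamus, Oxt and Avp differed between extraction pools, a contrast in which 17.4% of genes were called. Pool A held the mice of cages 1 to 4 and pool B those of cages 5 to 8, so that extraction and these sets of mice cannot be told apart. Pool A held 67.7, 110 and 181 CPM of Oxt (lowest, median and highest of 15 libraries) and pool B held 72.2, 152 and 1201 CPM (n = 16). Avp had 56.9, 103 and 280 CPM in pool A and 84.6, 184 and 1121 CPM in pool B. The pools overlapped broadly, with log2 fold changes of 0.85 for Oxt (SE 0.31, adjusted p = 0.0468) and 0.91 for Avp (SE 0.27, adjusted p = 0.0183). Without replicate 5, which was in pool B, neither was called, at 0.46 (adjusted p = 0.214) and 0.61 (adjusted p = 0.0663). Without it and PFC vehicle 4 weeks replicate 3, Oxt was not called (0.46, adjusted p = 0.0562) and Avp was (0.61, adjusted p = 0.0456), among 13.2% of all genes. With the ribosomal protein level as a covariate they were -0.05 and 0.10, neither called, in a fit that called 0.959% of all genes, and DESeq2 called 0 members among 20.3% of all genes. Limma-voom called both, at 0.56 for Oxt and 0.79 for Avp, among 34.8% of all genes. Without the filter on low counts 1 member was called, and with all 64 libraries also 1. The Oxt call stood close to the threshold and was also lost when any of several other single libraries was left out. Receptor genes did not pass this test, at -0.12 for Oxtr and -0.22 for Avpr1a. In PFC, where 24.9% of genes were called between pools C and D, 0 members were called. With the ribosomal protein level as a covariate, with 1 slope for both regions, 15.9% of genes were called there and 1 member, Oxt (-2.09, adjusted p = 0.0225). Its fitted difference without that covariate was 1.48 when vehicle 4 weeks replicate 3 was left out. With the pools apart, the median of Oxt at 3 h was 81.1 CPM after psilocybin (n = 4) and 113 CPM after vehicle (n = 3) in pool A, and 172 and 196 CPM (n = 4 each) in pool B. At 4 weeks it was 163 and 106 CPM in pool A and 143 and 150 CPM in pool B (n = 4 each), so that the direction of the Oxt medians at 4 weeks differed between the pools. The Oxt means at 4 weeks were higher after psilocybin in both, at 149 and 114 CPM in pool A and, with replicate 5, 399 and 144 CPM in pool B. For Avp the medians at 3 h were 90.8 CPM after psilocybin and 99.6 CPM after vehicle in pool A, and 218 and 175 CPM in pool B. At 4 weeks they were 158 and 130 CPM in pool A and 187 and 174 CPM in pool B, so that for Avp the direction of the medians differed between the pools at 3 h and not at 4 weeks.

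Oxt and Avp varied together from mouse to mouse. Deviations of log2 CPM from the fit of group and pool were correlated over the libraries of a region, and 24 relations were computed in this family. In the 31 hypothalamic libraries Oxt and Avp gave Pearson r = 0.935 and Spearman rho = 0.908, each with a permutation p = 1e-05, the smallest that 100000 resamples can give (adjusted p = 8e-05 and 0.00012). Without the 2 libraries farthest from the median r was 0.899, and it was 0.876 in pool A (n = 15) and 0.969 in pool B (n = 16). The per-kilobase ratio of Oxt to Avp had a lowest value of 0.695, a median of 0.965 and a highest of 1.43, and Oxt exceeded Avp in 13 of 31 libraries. Replicate 5 had a ratio of 1.15, inside the range of the others. The log2 ratio differed between psilocybin and vehicle by -0.17 at 3 h (two-sided exact permutation p = 0.217, adjusted over both times p = 0.433) and by 0.002 at 4 weeks (exact permutation p = 0.988). Within pools the difference was -0.17 (A) and -0.18 (B) at 3 h, and -0.0065 and 0.01 at 4 weeks. The within-pool exact permutation p was 0.343 (A) and 0.486 (B) at 3 h, and 0.971 and 0.914 at 4 weeks. In pool A at 3 h, with 4 libraries against 3, this test could not have reached 0.05.

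Both peptide genes also tracked the summed level of the ribosomal protein genes across the hypothalamic libraries. For Oxt r was 0.884 and rho 0.723, and for Avp r was 0.833 and rho 0.765 (all permutation p at most 4e-05, adjusted p at most 0.00032). Without the 2 farthest libraries r was 0.754 and 0.781. It was 0.615 and 0.774 in pool A (permutation p = 0.0148 and 0.0009, adjusted p = 0.0891 and 0.0108) and 0.926 and 0.876 in pool B. With the ribosomal protein level removed from both, r between Oxt and Avp was 0.768 (permutation p = 1e-05). The ribosomal protein transcripts had a median length of 1739 bases, against 3809 bases over all genes tested, and the part of transcript length or RNA quality in these relations was not tested. In the hypothalamus the receptor genes did not follow: r with the ribosomal protein level was -0.205 for Oxtr and 0.0963 for Avpr1a. In PFC r was 0.274 for Oxt, 0.392 for Avp, 0.159 for Oxtr and 0.373 for Avpr1a (adjusted permutation p 0.117 to 0.531). In PFC pool D it was 0.669 for Oxt (adjusted permutation p = 0.0423) and 0.789 for Avpr1a (adjusted permutation p = 0.028), against 0.0053 and -0.0109 in pool C.

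**Figure D4:**
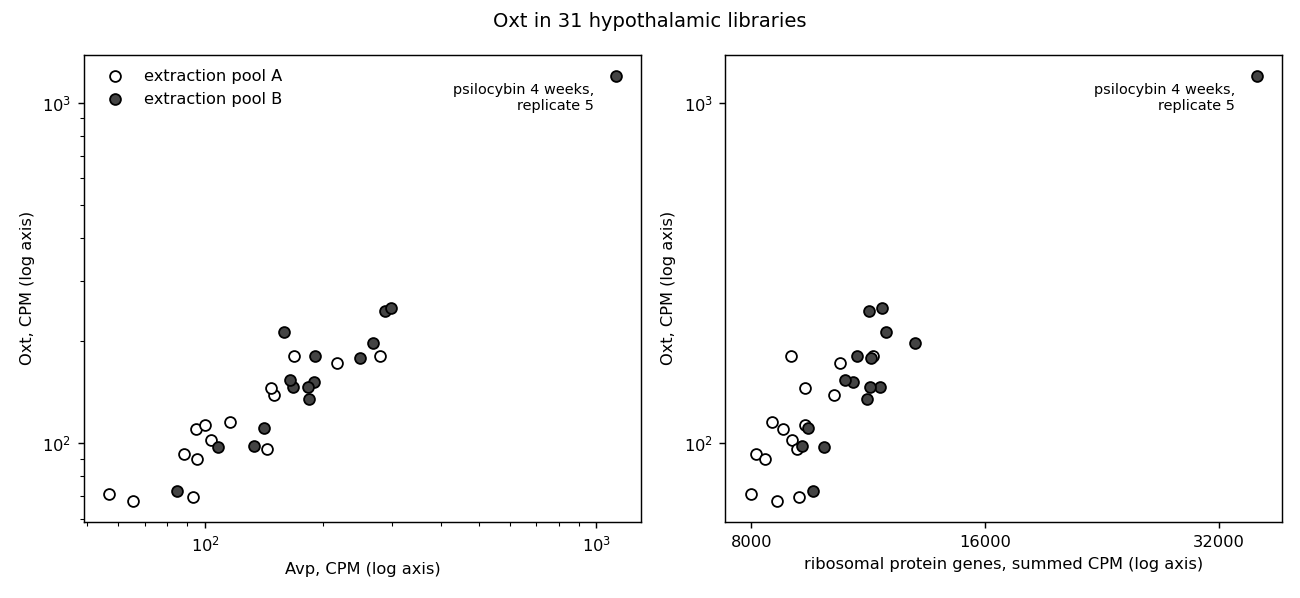
Oxt in CPM against Avp in CPM (left) and against the summed CPM of the ribosomal protein genes (right) in 31 hypothalamic libraries, with logarithmic axes and open and filled circles for extraction pools A and B. Points in the left panel lie along a line (r = 0.935 after group and pool are removed), and psilocybin 4 weeks replicate 5 is far to the upper right in both panels.

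Between peptide and receptor genes no relation passed the test over all libraries of a region. Within a pool 1 did, Oxt with Avpr1a in PFC pool D (n = 16, r = 0.684, permutation p = 0.00584, adjusted p = 0.028), from transcripts with few reads, where pool C had r = -0.508 (adjusted p = 0.172). In pool D both of these genes also followed the ribosomal protein level (r = 0.669 and 0.789). In the hypothalamus r was -0.106 for Oxt with Oxtr, 0.152 for Oxt with Avpr1a, -0.15 for Avp with Oxtr and 0.15 for Avp with Avpr1a (adjusted permutation p 0.531 to 0.651). The receptor genes were related to each other in the hypothalamus, with r = 0.491 (permutation p = 0.00497, adjusted p = 0.0298) and rho = 0.456 (adjusted p = 0.0539). Without the 2 farthest libraries the call was lost, with r at 0.313 (permutation p = 0.0993). It was 0.496 (adjusted p = 0.0323) without replicate 5 and 0.524 (adjusted p = 0.0203) with the ribosomal protein level removed, and within pools it was 0.514 and 0.464, neither with a permutation p under 0.05. In PFC Oxt and Avp gave r = 0.461 (permutation p = 0.0092, adjusted p = 0.0442), with rho = 0.451 (adjusted p = 0.0539) and r = 0.448 (adjusted p = 0.0723) without the 2 farthest libraries, from levels near the limit of detection. A gene's level in the PFC of a mouse did not track its level in the hypothalamus of the same mouse at an adjusted p under 0.05 (30 mice, matched by group, replicate number and cage, r = -0.23 for Oxt, 0.355 for Avp, -0.214 for Oxtr and -0.274 for Avpr1a).

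The genes most like each member were ranked by Spearman correlation of the same deviations across all genes tested, as a description. In the 31 hypothalamic libraries among the nearest to Oxt were Avp (rho = 0.91), the ribosomal protein gene Rpl13 (0.90), Fbxo2 (0.86) and Cotl1 (0.86). Nearest to Avp were Oxt, Rpl13 (0.87), the astrocyte filament gene Gfap (0.85), the ribosomal protein gene Rps16 (0.85) and Nt5dc2 (0.83). With the ribosomal protein level removed too, Avp was the third nearest to Oxt (0.79) after Gse1 (0.82) and Kdm6b (0.79), and Gfap was the nearest to Avp (0.80). Nearest to Oxtr in the hypothalamus were Pcdh8 (0.72), Cers1 (0.72), the neurokinin B receptor gene Tacr3 (0.71), D430036J16Rik (0.70) and Taok2 (0.70). In PFC they were Ndst4 (0.78), Tiam1 (0.77), Rgs12 (0.75), Gpkow (0.75) and Nsg2 (0.72), with no gene in both lists. Nearest to Avpr1a in the hypothalamus were Mogat1 (0.66), Rrad (0.62), Dmrtc1a (0.59), Cebpd (0.57) and Rgs13 (0.56). These points share libraries, depth and extraction, and likeness here says nothing of shared function.

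Beside the members, 56 genes of 7 groups were tested: receptors and enzymes that degrade or release the peptides, prohormone processing, lineage transcription factors, other peptides of the same neurons, regulators of Oxt and Avp transcription, genes of the suprachiasmatic nucleus and Gq signalling. The remaining receptor genes, Avpr1b and Avpr2, did not pass the filter on low counts. Between psilocybin and vehicle edgeR called 0 of 56 in each of the 4 comparisons, with 4 (PFC 3 h), 4 (PFC 4 weeks), 0 (hypothalamus 3 h) and 4 (hypothalamus 4 weeks) at an unadjusted p under 0.05. Of all 18971 genes tested, 1371, 456, 337 and 1823 had an unadjusted p under 0.05 in these comparisons. Of the 56, the count in PFC at 4 weeks was 1 without vehicle replicate 3, and that in the hypothalamus at 4 weeks was 0 without psilocybin replicate 5 and 0 with the ribosomal protein covariate. DESeq2 called 0 in all 4, with 5, 4, 0 and 5 at an unadjusted p under 0.05. Limma-voom called 5 of 56 in PFC at 3 h (Creb1, Crem, Crh, Lnpep and Pou3f2), where it called 6.49% of all genes, and 0 in the others, with 11, 1, 4 and 0 at an unadjusted p under 0.05. In the hypothalamus at 4 weeks the smallest p belonged to Pcsk1n, which encodes the inhibitor proSAAS of prohormone convertase 1, at a log2 fold change of 1.00 (SE 0.38, unadjusted p = 0.0109, adjusted p = 0.448), and of the genes that had their own smallest p in this comparison and one of the 2 smallest of their group over all 4, the others were at 0.18 for the chaperone gene Scg5, 0.21 for Arrb2 and -0.35 for Rora. Without replicate 5 these values were 0.26 for Pcsk1n (unadjusted p = 0.426), -0.0014 for Scg5, 0.03 for Arrb2 and -0.23 for Rora. In PFC at 3 h they were 0.51 for Crh, the stress peptide gene (SE 0.19, unadjusted p = 0.0094, adjusted p = 0.587), 0.18 for Lnpep, -0.11 for Arrb1 and 1.25 for Prok2 (SE 0.66). Sim1 and Lhx1 had an unadjusted p under 0.05 as well, but no fold is given, as Sim1 was at 0 CPM in all 8 psilocybin libraries and Lhx1 at a mean of 0.00582 CPM, against 0.0488 and 0.0604 CPM after vehicle. In the hypothalamus at 3 h Cd38 had -0.13 (SE 0.14). In PFC at 4 weeks they were -2.08 for Gal, -1.41 for Otp and -1.03 for Esr2, of which Gal and Otp turned to 0.70 and 0.15 without vehicle replicate 3. Over the 7 groups the median log2 fold change at 4 weeks in the hypothalamus ran from -0.11 to 0.29, against 0.01 over all genes.

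Between regions 51 of the 56 were called, against 76.2% of all genes. The transcription factor genes that specify these neurons, Otp (log2 fold change -7.82, SE 0.19) and Sim1 (-8.54, SE 0.23), fell with the peptides in PFC, and in that group 3 of 5 were lower and 2 higher. Of the other peptides of these neurons 5 of 9 were lower, such as Gal (-6.78) and Trh (-5.54), and 3 were higher, such as Cck (2.82). Of the suprachiasmatic group 4 of 6 were lower, led by Six6 (-9.31), and 2 were higher, Vip (2.63) and Grp (0.64). Cd38, whose product promotes oxytocin release (-2.21), and Lnpep, which encodes oxytocinase (-0.21), were both lower. Prohormone processing was split, with 4 of 10 higher and 4 lower, and regulators of transcription with 3 of 9 higher and 6 lower. Of the Gq signalling genes 11 of 15 were higher in PFC, such as Itpr1 (2.46) and Prkcb (2.10), and 2 were lower, where 39.6% of all genes were higher and 36.5% lower.

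Between 3 h and 4 weeks in PFC, 7 of 56 were called after vehicle (4.72% of all genes) and 5 of 56 after psilocybin (5.96%). These counts were 4 (4.29% of all genes) and 3 (5.86%) without PFC vehicle 4 weeks replicate 3, 8 (8.32%) and 10 (11.3%) without hypothalamus psilocybin 4 weeks replicate 5, and 5 (7.94%) and 11 (11.1%) without both. They were 4 (5.98%) and 13 (19.1%) in limma-voom and 6 (6.17%) and 5 (7.85%) in DESeq2. They were 3 (1.01%) and 2 (1.31%) without the filter on low counts, 3 (2.78%) and 3 (4.34%) with all 64 libraries, and 5 (4.19%) and 3 (5.2%) with cage as a replicate block. Rasd1, a Ras-related gene first known as dexamethasone-induced and a regulator of Avp transcription, was higher at 3 h in both. Its median was 6.71 CPM at 3 h and 3.08 CPM at 4 weeks after vehicle (log2 fold change 1.16, SE 0.20) and 6.76 and 2.87 CPM after psilocybin (1.10, SE 0.21). Caprin2, which encodes a protein that binds Avp RNA, was lower at 3 h, at 7.76 against 11.9 CPM after vehicle (-0.55, SE 0.12) and 8.14 against 10.9 CPM after psilocybin (-0.49, SE 0.12). Gna11, a Gq subunit gene, was called in both at 0.20 and 0.18, Grk2 after vehicle at 0.24, and Rgs2 (0.27) after psilocybin. Lhx1 was called after psilocybin too, but from almost no reads, with a mean of 0.00582 CPM at 3 h and 0.114 CPM at 4 weeks, so that its fold is not given. The vehicle calls of Otp (-2.86), Gal (-2.31) and Trh (-1.60) were lost without replicate 3 of the 4-week group, at -1.06, 0.89 and -0.62. The psilocybin calls of Gna11 and Rgs2 did not hold with DESeq2-type size factors (adjusted p = 0.0515 and 0.0524) or without PFC vehicle 4 weeks replicate 3 (adjusted p = 0.0543 for both), nor without the filter, without the pool term, with all 64 libraries or with cage as a block. Without the filter the Lhx1 call was lost too (adjusted p = 0.0773), as it was in limma-voom (adjusted p = 0.0992). The vehicle calls of Gna11 and Grk2 were lost without the filter (adjusted p = 0.19 and 0.163) and with all 64 libraries (adjusted p = 0.275 and 0.0687). In the alternatives other than leaving out each library in turn, Rasd1 and Caprin2 stayed called after both injections. In the hypothalamus edgeR called 0 of 56 in either time comparison, with 4 after vehicle and 6 after psilocybin at an unadjusted p under 0.05. Of all 18971 genes 1535 and 3302 were under that value. After psilocybin edgeR called 2 without the filter (Creb1 and Rgs4, among 0.391% of all genes) and 1 with cage as a block (Rgs4, among 1.01%). DESeq2 called 0 and 1 (Creb1), the latter where it called 2.8% of the genes it gave an adjusted p, and limma-voom called 5 (Cd38, Creb1, Gal, Pou3f2 and Rgs2) and 0, the former where it called 7.25% of all genes.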

How the data were processed

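What was measured: polyadenylated RNA of PFC (labelled frontal cortex) and whole hypothalamus of the same mice, sequenced as stranded 52-base paired-end libraries. Per the labels and the study's methods, the authors made FASTQ files with bcl2fastq 2.20.0, aligned to GRCm38 with STAR 2.7.2b and counted with featureCounts 1.6.2 against GENCODE vM25, both ends on the same strand; the deposited values are raw counts per gene and library, not normalized. The study left out 2 libraries with almost no reads, and 1 more that is not identified in the sources used here and was kept.

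Counts of 62 libraries with at least 1000000 reads entered one edgeR 4.0.16 quasi-likelihood fit (R 4.3.3; robust, TMM scaling) of group plus extraction pool. filterByExpr (minimum count 10) left 18971 of 55401 genes, all members among them, and p-values were adjusted by Benjamini-Hochberg over all of them (threshold 0.05). CPM and RPKM used TMM-scaled library sizes and a prior count of 0.5 only for logs. DESeq2 1.42.0 and limma 3.58.1 (voom with quality weights and animal as a block, the study's procedure) were alternatives, as were other size factors, no filter, no pool term, cage as a block, all 64 libraries and each library left out. The ribosomal protein covariate, which took 1 slope for both regions, and the omission of PFC vehicle 4 weeks replicate 3 were added after the data were seen. The members and gene lists were chosen with earlier results of these data known. Named genes were the members, in each list the 2 genes with the smallest p over the 4 comparisons of psilocybin with vehicle, each in the comparison of that p, the genes called between times, examples of those called between regions, and the 5 genes most like each member where its median count was at least 10; 1 gene so chosen is not reported here. Genes named only for calls in an alternative were chosen after their values were seen. The fit was tested on simulated data.

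Replicates were separate mice; of 210 pairs of libraries within groups, the closest differed by a chi-square of 3.85 per degree of freedom, so none was counted as a duplicate. Same-cage libraries correlated at 0.0674 in PFC (20 of 45 pairs over 0.1) and 0.0519 in the hypothalamus (15 of 42). With pool removed they correlated at -0.0338 and -0.0245, against -0.0692 and -0.0586 for other cages of the same pool. Removing group and pool lowers such values by itself, so their sign does not decide on an effect of cage. Cage was not used as a pairing in the main fit and entered an alternative as a block. Of the gene identifiers 55141 matched a symbol. Confidence intervals of single libraries are exact, at 95%, and cover counting error only.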

Additional observations from a re-analysis of the deposited data

Results flagged for a closer look

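Among 32 groups of 7 or 8 libraries, 9 held a library whose gap to its nearest neighbour was large for the range of the group (Dixon's test at 95%, on CPM). For normally distributed values chance exceeds this limit in about 1 in 20 groups. That rate does not carry over to CPM from few reads, as for the peptide genes in PFC. There, Oxt after psilocybin at 3 h was flagged at 12 reads, with 4 of 8 libraries at 0. All 9 were the highest library of a peptide gene, and none concerned Oxtr or Avpr1a. In the hypothalamus, psilocybin 4 weeks replicate 5 had 1200.8 CPM of Oxt and 1121.35 CPM of Avp, beside a ribosomal protein sum of 35814 CPM. In PFC, vehicle 4 weeks replicate 3 had 7.63 CPM of Oxt and 2.33 CPM of Avp. The other PFC libraries were psilocybin 3 h replicate 2 with 1.39 CPM of Oxt, vehicle 3 h replicate 8 with 1.75 CPM of Oxt, and psilocybin 3 h replicate 7 with 2.45, psilocybin 4 weeks replicate 5 with 2.46 and vehicle 3 h replicate 6 with 2.76 CPM of Avp.

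The 2 libraries left out for depth also held peptide reads. Hypothalamus vehicle 3 h replicate 2, with 211111 reads, held 39 of Oxt (185 CPM, exact 95% interval 131 to 253) and 47 of Avp (223 CPM, interval 164 to 296), inside the range of its region. PFC psilocybin 4 weeks replicate 3, with 200066 reads, of which 32.9% lay on CT010467.1, held 38 of Oxt (190 CPM, interval 134 to 261) and 2 of Avp. That Oxt level lies within the hypothalamic range and above every PFC library used, where the highest was 7.63 CPM. Its source was not tested.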

How the results depend on the processing

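Across 11 settings, which include the omission of each and of both of the libraries that stand apart, the region calls of Oxt, Avp and Avpr1a kept direction and threshold, and none of the 4 genes was called between psilocybin and vehicle in any. Signs close to 0 or resting on few reads turned. All values are log2 fold changes. Oxtr between regions was -0.0308 with DESeq2-type size factors, -0.0384 without the filter, -0.0255 without PFC vehicle 4 weeks replicate 3, -0.0315 without that library and hypothalamus psilocybin 4 weeks replicate 5, -0.0222 in voom and -0.0303 in DESeq2. Without the filter the hypothalamic Oxtr interaction was 0.0227. Without the pool term Avp between times in the hypothalamus after vehicle was 0.0547 and the PFC Avp interaction -0.0356. With cage as replicate block these were 0.0301 and -0.323, and Oxt between times in PFC after psilocybin was -0.374; the block changed no other direction, and no call of a member. The mean correlation of same-cage libraries was 0.0674 in PFC and 0.0519 in the hypothalamus, against 0.038 and 0.0317 for other cages of the same pool.

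With all 64 libraries, Oxt in PFC was -1.72 between times after psilocybin and -0.134 as interaction. Without PFC vehicle 4 weeks replicate 3, and without both libraries, Oxt was 1.72 and 1.73 between times after vehicle, -1.29 and -1.31 as interaction and 1.48 and 1.51 between pools. Avp was 0.357 and 0.366 for psilocybin at 4 weeks, 0.591 and 0.59 between times after vehicle and -0.949 and -0.963 as interaction. Otp and Gal were 0.147 and 0.147, and 0.699 and 0.708, for psilocybin at 4 weeks, and Gal was 0.891 and 0.892 between times after vehicle. With the ribosomal protein covariate Oxt in PFC was -2.24 (called) between times after vehicle and -0.175 after psilocybin, Avp between PFC pools -0.32 and Oxt between hypothalamic pools -0.0522. In voom Oxt in PFC was 0.46 and -0.383 between times after vehicle and psilocybin, -0.843 as interaction and 1.18 between pools. Avp was 0.0692 between times in the hypothalamus after vehicle and -0.193 as PFC interaction, Avpr1a was -0.0184 for psilocybin in PFC at 3 h and 0.492 (called) between times in the hypothalamus after vehicle, and Gal was 0.0077 between times in PFC after vehicle. The PFC Avp interaction was -0.0645 in DESeq2. Scg5 in the hypothalamus at 4 weeks was -0.0014 without replicate 5 and -0.0035 in voom.

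The relation of Oxt with Avp in PFC lost its call as rho (0.451), without the 2 farthest libraries (0.448), in pools C and D (0.517 and 0.453), without the 2 libraries that stand apart (0.393) and with the ribosomal level removed (0.4). Oxt with Avpr1a in PFC turned from -0.132 to 0.684 in pool D. The log2 ratio difference at 4 weeks was -0.0419 without replicate 5 and -0.0065 in pool A.

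Counts of all genes called moved most. PFC psilocybin 3 h had 1 without the filter, without the pool term and with all 64 libraries, 6 without replicate 5, 8 without both libraries, 1232 in voom and 9 in DESeq2. PFC psilocybin 4 weeks had 1 without the pool term, 3 with all 64 libraries and 19 in DESeq2, the hypothalamus at 4 weeks 13 in DESeq2, and the PFC interaction 1 in voom and 4 in DESeq2. Between times PFC vehicle had 425 (no filter), 521 (all 64), 1571 (without replicate 5), 1348 (covariate) and 1498 (without both). PFC psilocybin had 552 (no filter), 666 (no pool), 2143 (without replicate 5), 2094 (without both) and 3614 (voom). Hypothalamus vehicle had 60 (no filter), 53 (all 64), 225 (without replicate 5), 237 (covariate), 215 (without both) and 1375 (voom), and hypothalamus psilocybin 96 (all 64), 134 (without both), 624 (voom) and 448 (DESeq2). The cause was not tested.

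Leaving out each library of a comparison in turn gave these ranges of counts: between times hypothalamus psilocybin 131 to 368, between times hypothalamus vehicle 67 to 119, psilocybin effect PFC 3 h 1 to 11, between times PFC psilocybin 706 to 1292, between times PFC vehicle 480 to 1378. It turned the sign of these log2 fold changes, with ranges: Oxtr interaction hypothalamus -0.0937 to 0.0327, Oxtr psilocybin effect hypothalamus 3 h -0.0312 to 0.0906, Avp between times hypothalamus vehicle -0.18 to 0.14, Oxtr between regions -0.0255 to 0.0343, Avp interaction PFC -0.949 to 0.961, Oxt between times PFC psilocybin -0.876 to 0.583, Avp psilocybin effect PFC 4 weeks -1.45 to 0.356, Oxt between times PFC vehicle -2.7 to 1.72, Avp between times PFC vehicle -1.14 to 0.591, Oxt interaction PFC -1.29 to 2.89, Oxt between pools PFC -1.8 to 1.48, Avp between times PFC psilocybin -1.27 to 0.469, Avpr1a between times PFC psilocybin -0.402 to 0.0174, Avp psilocybin effect PFC 3 h -1.33 to 0.184, Oxtr psilocybin effect PFC 3 h -0.0185 to 0.147, Oxtr between times PFC psilocybin -0.0021 to 0.172, Scg5 psilocybin effect hypothalamus 4 weeks -0.0014 to 0.211, Otp psilocybin effect PFC 4 weeks -1.82 to 0.147, Gal psilocybin effect PFC 4 weeks -2.68 to 0.699, Gal between times PFC vehicle -2.53 to 0.891. For peptide genes in PFC the range rests on vehicle 4 weeks replicate 3 or on libraries with few reads. What depth limits is PFC Oxt, Avp and Avpr1a, whose medians were 2, 6 and 7 reads.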
